A study of Saccharomyces cerevisiae with 66 samples.

Results

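The YBP2 viewpoint (VP) was examined with short LacO arrays of 4, 8 and 16 copies, after 1 h of induction. MTAC (Methyltransferase Targeting-based chromosome Architecture Capture) uses a fusion of the bacterial repressor LacI, which binds LacO, with M.CviPI, a methyltransferase that methylates cytosine in the dinucleotide GC. Nucleosome-depleted regions (NDRs) that come close to the array can gain methylation, which budding yeast itself lacks, and the methylated DNA is recovered by immunoprecipitation with an antibody against 5-methylcytosine (MeDIP) and sequenced. Of the 66 libraries of the series, 8 belong here, and of its 21 comparison tables, 3 hold their values. These tables were taken by their labels (YBP2 4X, 8X and 16X at 1 h), and every one of the 4828 NDRs in them was used.

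The strains were MATa yeast of the W303 background that carry LacI-SV40NLS-M.CviPI under a LexA-responsive promoter, driven by LexA-ER-VP16. The targeted strains carry the LacO array and a HIS3 marker at YBP2 on chromosome VII, and the control strain carries the same fusion with no LacO. All were induced with 2 nM β-estradiol for 1 h, with 2 libraries for each strain. In the paper's plasmid list, the arrays of 8 and 16 copies share a plasmid name apart from the copy number. The array of 4 copies and that of 256 copies, used below for reference, each have another name. Plasmid and copy number therefore change together in any comparison of copy numbers that includes 4 or 256. The part of the plasmid was not tested. The control libraries are the same for the 3 tables, so their log2 fold changes share the error of the control and do not bear one another out. The tables give one value over all libraries of a comparison and none for single libraries, so the spread between libraries is seen only through the standard error (SE) of each log2 fold change. They hold immunoprecipitated DNA alone, so that more methylation at a locus and more copies of that locus cannot be told apart.

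In budding yeast most promoters hold an NDR, where DNA is open to enzymes, while DNA wrapped in nucleosomes is methylated poorly. A DNA-tethered methyltransferase marks its own surroundings first, and loci elsewhere in the nucleus only as often as they meet the array. Free fusion protein in the nucleus gives a background in every strain, which the control without LacO measures.

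The DNA of the NDRs that the results turn on is given 5′ to 3′ on the reference plus strand, from RefSeq's R64 assembly (build sacCer3 in the submitters' processing notes), with every GC in capitals. GC reads the same on both strands, so one search covers both. Whether the NDR starts count from 0 or 1 is not given in the sources used here, and they were read as counting from 1. The first NDR lies between the end of YBP2 and PKP2, and the second between DUO1 and YBP2. The SUP2/AMD2 and VHS1 NDRs of chromosome IV were called higher with 4 copies. The chromosome VI NDR and the one between RPN6 and PMT1 fell most with 8 copies against 16. The last line is the outer part of an NDR at the left end of chromosome III, which holds no GC at all.
PKP2 NDR, chrVII:392018-392166: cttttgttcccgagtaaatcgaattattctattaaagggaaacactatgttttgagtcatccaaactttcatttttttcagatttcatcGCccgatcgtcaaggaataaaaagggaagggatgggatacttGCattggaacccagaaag
DUO1/YBP2 NDR, chrVII:389786-389914: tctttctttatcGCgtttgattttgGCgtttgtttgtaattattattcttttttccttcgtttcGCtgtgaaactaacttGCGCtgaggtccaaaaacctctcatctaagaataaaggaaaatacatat
YDR246W-A/VHS1 NDR, chrIV:955441-955609: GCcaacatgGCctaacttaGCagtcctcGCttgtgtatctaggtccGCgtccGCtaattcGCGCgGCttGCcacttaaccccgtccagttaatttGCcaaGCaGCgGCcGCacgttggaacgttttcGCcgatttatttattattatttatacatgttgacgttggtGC
SUP2/AMD2 NDR, chrIV:946545-946677: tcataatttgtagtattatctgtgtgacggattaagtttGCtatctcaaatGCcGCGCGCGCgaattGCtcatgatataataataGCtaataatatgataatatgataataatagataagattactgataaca
CMK1 NDR, chrVI:173960-174133: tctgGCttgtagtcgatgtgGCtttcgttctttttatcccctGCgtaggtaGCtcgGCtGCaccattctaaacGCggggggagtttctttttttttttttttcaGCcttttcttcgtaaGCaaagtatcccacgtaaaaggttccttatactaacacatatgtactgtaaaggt
RPN6/PMT1 NDR, chrIV:286744-286993: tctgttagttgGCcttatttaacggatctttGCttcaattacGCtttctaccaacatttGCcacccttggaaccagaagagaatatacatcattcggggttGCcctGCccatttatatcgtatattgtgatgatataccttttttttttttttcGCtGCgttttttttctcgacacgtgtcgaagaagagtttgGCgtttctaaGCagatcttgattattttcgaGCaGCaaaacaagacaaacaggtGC
chromosome III end, chrIII:16-165: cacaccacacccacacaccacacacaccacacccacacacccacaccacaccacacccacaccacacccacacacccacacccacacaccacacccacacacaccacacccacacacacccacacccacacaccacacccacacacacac

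Of 1955 NDRs on the 7 chromosomes whose NDR ends were at hand, 1921 (98.3%) hold at least 1 GC, with a median of 6. The PKP2 NDR, which is 149 bases long, holds 2, fewer than most. The NDR between PUS2 and PYC1 (480 bases) holds 42, that upstream of OLE1 (548 bases) 31, and that upstream of RIM8 (390 bases) 32, more than nearly all others. GC content and log2 fold change were weakly correlated across these NDRs with 16 copies (Spearman 0.36) and less with 4 (0.16), while with 8 copies the value was -0.07. These values are across NDRs, which share libraries and base composition.

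The number of NDRs that differed from the control was small with every short array, and the NDR upstream of PKP2, next to YBP2, had the highest value in each of the 3 tables. Calls required a log2 fold change beyond 0.7 in size together with an adjusted p under 0.05 (normal test on the log2 fold change over its SE, Benjamini-Hochberg over all 4828 NDRs). With 4 copies 8 NDRs were higher (0.166% of NDRs) and 3 lower (0.0621%). With 8 copies 2 were higher (0.0414%) and 21 lower (0.435%). With 16 copies 8 were higher (0.166%) and 6 lower (0.124%). Without adjustment, p was under 0.05 for 73 higher and 91 lower NDRs with 4 copies, 68 and 205 with 8 copies, and 153 and 97 with 16 copies. With 256 copies at 1 h, against the same control, 219 NDRs were higher (4.54%) and 155 lower (3.21%). By the paper's list, both of those 256-copy libraries had more uniquely mapped reads than any short-array library. Their log2 fold change over its SE also had a wider robust spread, 1.17 beside 0.79 to 0.90 with the short arrays. The part of either in these counts was not tested.

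The tables differed in precision. The median SE was 0.29 with 4 copies, 0.45 with 8 and 0.32 with 16, so a change of a given size was least readily called with 8 copies. By the paper's list of libraries, an 8-copy library had the fewest uniquely mapped reads of all those used here. The part of that depth in these SEs was not tested. The SE did not pass 0.31, 0.48 and 0.34 in the 3 tables. It also fell at the lowest base means: with 4 copies it was 0.24 at a base mean of 3.9 (near DUO1) and 0.31 at 17.6 (near ALG13). That shape is one of values moderated toward 0, although the sources used here do not state whether the deposited log2 fold changes were moderated. The observed spread of the log2 fold change over its SE was 0.79, 0.85 and 0.90, below the 1 that correct SEs of unmoderated values would give. Moderated values can spread by less than 1 with correct SEs, so the scaled counts that follow may be too high. When the SEs were scaled to that spread, 17 NDRs were higher and 17 lower with 4 copies, 20 and 83 with 8 copies, and 14 and 10 with 16 copies. The median base mean, which is the normalized read level of an NDR averaged over the 4 libraries of a table, was 18.2 with 4 copies and 19.7 with 16, with that of 8 copies slightly lower. Chromosome medians lay between -0.10 and 0.09 in all 3 tables.

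**Figure D1:**
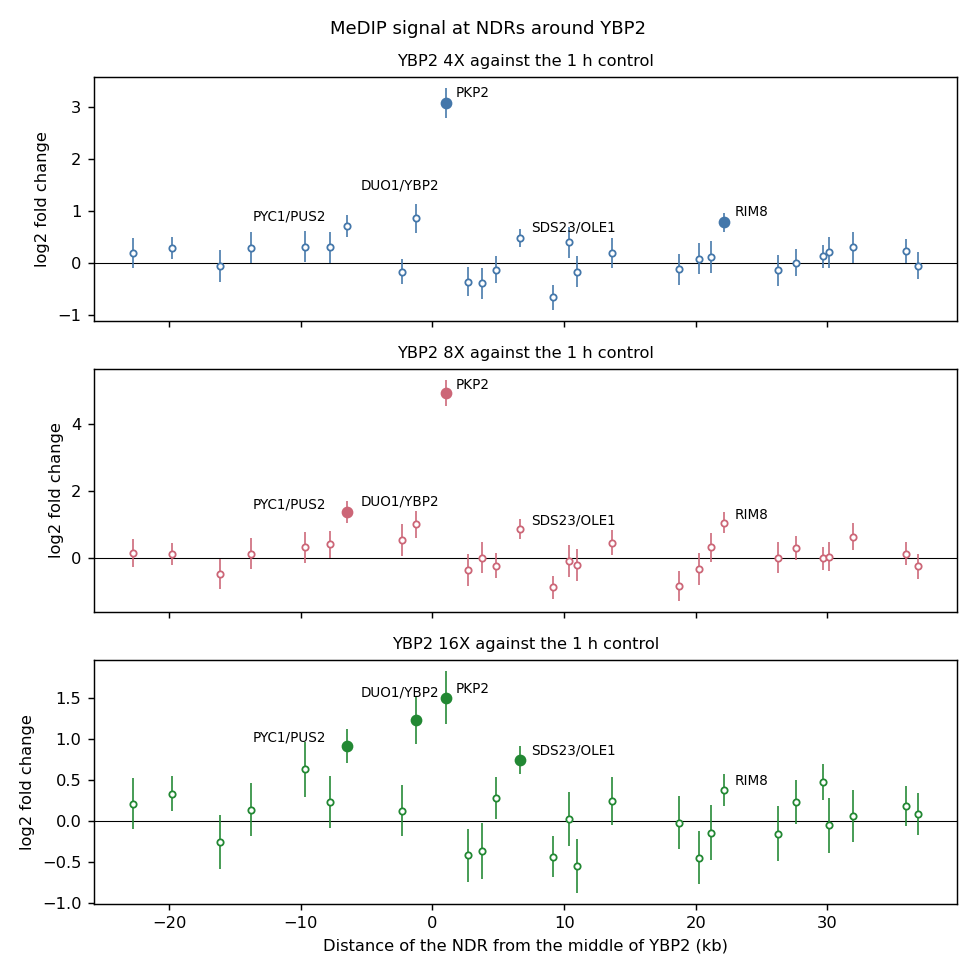
Log2 fold change (y axis, ± SE of the deposited value) of the 29 NDRs within 30 kb of the VP position, against their distance from the middle of YBP2 (x axis, kb), for 4, 8 and 16 LacO copies, with a y axis of its own for each. Filled points are called higher. The PKP2 NDR is the highest point in each panel, at 3.08, 4.95 and 1.51, and most NDRs a few kb away lie near 0.

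The NDR upstream of PKP2 rose in all 3 strains. PKP2 encodes a kinase that acts on the mitochondrial pyruvate dehydrogenase. The NDR starts 28 bp beyond the end of the YBP2 coding region, and is the NDR nearest to that end. The VP position used for the distance classes below is the coordinate given in the study's supplement, and it lies elsewhere. By that coordinate the PKP2 NDR is 6.14 kb away and the NDR upstream of OLE1 0.447 kb. The paper, however, places this VP beside the YBP2 gene and has a separate strain for a VP at OLE1. A primer the paper lists for 4C, a chromosome contact assay, at YBP2 matches the PKP2 NDR printed above in nearly all its bases. The exact insertion point, and so which NDR is nearest to it, was not settled here. The deposited log2 fold change of the PKP2 NDR was 3.08 ± 0.29 (SE) with 4 copies, 4.95 ± 0.39 with 8, 1.51 ± 0.32 with 16 and 3.01 ± 0.52 with 256 copies at 1 h (adjusted p = 3.3e-23, 1.2e-32 and 0.0043 for the short arrays). With 2 h of induction and 256 copies, against other control libraries, it was 4.77. The order of these values did not follow the copy number, although only the strains with 8 and 16 copies share a plasmid name. Over the 6 pairs of copy numbers at 1 h, with p adjusted over those 6 (normal test, Benjamini-Hochberg), 8 copies exceeded 4 by 1.87 (adjusted p = 3.7e-04), 16 by 3.44 (8.9e-11) and 256 by 1.94 (0.0046). The value with 16 copies lay 1.57 below that with 4 (5.6e-04) and 1.50 below that with 256 (0.018). Between 4 and 256 copies the difference was 0.07, with a 95% interval from -1.10 to 1.25 (adjusted p = 0.90). Adjusted over all NDRs instead, only 8 against 16 copies passed (7.1e-08), while 4 against 8 gave 0.18 and 4 against 16 gave 1.00. All these tests of pairs take the deposited values as unmoderated, so their p-values do not cover unlike moderation between the tables.

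The tables also differed in the control level that they imply for this NDR. From the base mean and log2 fold change of a table, the level in the control and in the targeted libraries can be worked out, on the assumption that the fold change is the plain ratio of the 2 means, with no moderation. After the tables were brought to one scale, the implied control levels of the 707 NDRs with a base mean of at least 50 in all 4 tables of 1 h were nearly the same, with a robust spread against the 4-copy table of 0.03, 0.02 and 0.02 (log2) for 8, 16 and 256 copies. The PKP2 NDR was the 1 NDR with a difference over 1.5 times in the 16-copy table and the 1 in the 256-copy table, while with 8 copies the single such NDR was that of FIG1 on chromosome II, named after its value was seen. The PKP2 NDR's implied control level was 13.4 with 4 copies and 11.97 with 8, but 47.8 with 16 and 22.3 with 256, although the control libraries are the same. Its implied level in the targeted libraries was 113, 370, 136 and 180 normalized reads.

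With the lowest of these control levels (11.97) used for all 4 tables, the PKP2 NDR would stand at a log2 fold change of 3.26 with 4 copies, 4.95 with 8, 3.84 with 16 and 3.99 with 256. That is 9.56-fold, 30.9-fold, 14.3-fold and 15.9-fold over the control. On this scale 16 copies lay 0.58 above 4 copies, the opposite of the deposited values, and 0.15 below 256 copies. The value with 8 copies stayed the highest. These recomputed values have no SE, were not tested and hold only under that assumption, which the SEs described above put in doubt. The reason for the different control levels was not tested.

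**Figure D2:**
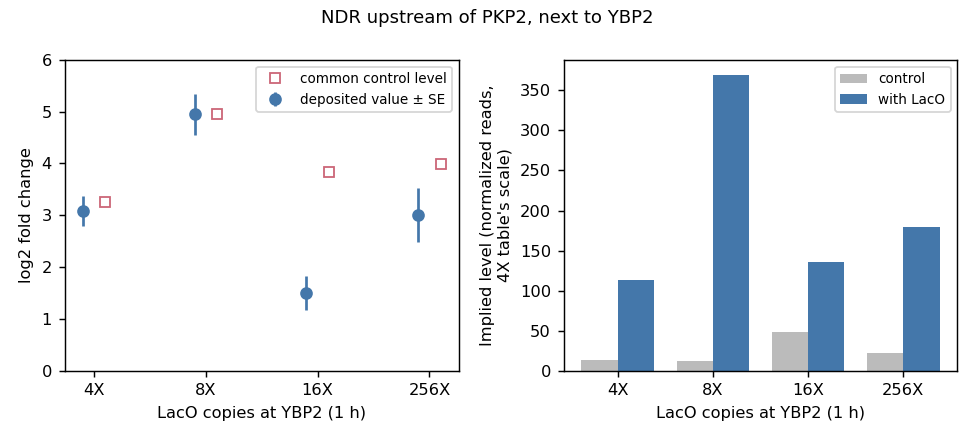
Left, log2 fold change of the PKP2 NDR for 4, 8, 16 and 256 LacO copies at 1 h: filled points are the deposited values (± SE), open squares use one control level for all tables. Right, the control and targeted levels implied by each table (normalized reads), with a control level of 47.8 in the 16-copy table against 11.97 in the 8-copy table.

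Around YBP2, 29 NDRs lay within 30 kb of the VP position. With 4 copies 2 of them were called higher, with 8 copies 2, and with 16 copies 4, and none was called lower with a short array. Their median log2 fold change was 0.19, 0.12 and 0.14, beside 0.00, 0.01 and -0.01 over all NDRs, and 19 of 29 were above 0 in each table. With 256 copies at 1 h the median was 0.30 with 4 called higher, and at 2 h 0.45 with 13. Without the PKP2 NDR the medians were 0.16, 0.11 and 0.14. That position lies 6.17 kb beyond the end of YBP2 in the reference annotation. Measured from the middle of YBP2 instead, 28 NDRs were local, with the same counts of calls and medians of 0.12, 0.12 and 0.14.

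Of the 4 other local NDRs called in at least 1 table, 3 were the long NDRs with many GC named above. The NDR between PUS2, for a tRNA pseudouridine synthase, and PYC1, for a pyruvate carboxylase, lies 6.47 kb from the middle of YBP2. It was at 0.71 ± 0.21 with 4 copies (adjusted p = 0.21), 1.37 ± 0.32 with 8 (0.0088) and 0.91 ± 0.21 with 16 (0.0076), and at 1.98 with 256. The NDR upstream of OLE1, the fatty acid desaturase, lies 6.69 kb away on the other side, at 0.49 ± 0.17 with 4 copies (0.57), 0.88 ± 0.30 with 8 (0.20) and 0.75 ± 0.17 with 16 (0.0076), and at 1.72 with 256. For both, the value was highest with 256 copies. When the median of NDRs of like base mean was subtracted, neither passed with 16 copies (adjusted p = 0.18 for PUS2/PYC1 and 0.33 for OLE1).

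The NDR between YBP2 and DUO1, which encodes a kinetochore protein, lies on the left side, 1.24 kb from the middle of YBP2. It was at 0.86 ± 0.29 with 4 copies (adjusted p = 0.39), 1.00 ± 0.40 with 8 (0.40) and 1.24 ± 0.29 with 16 (0.013), and at 0.89 with 256. The NDR upstream of RIM8, a gene for an arrestin-related protein of pH sensing, lies 22.2 kb to the right. It was at 0.78 ± 0.18 with 4 copies (0.016), 1.05 ± 0.31 with 8 (0.086), 0.38 ± 0.20 with 16 (0.97) and 0.32 with 256. When the median of NDRs of like base mean was subtracted, the RIM8 NDR with 4 copies no longer passed (adjusted p = 0.10). No pair of short arrays differed at any of these 4 NDRs by the test across all NDRs. At these 4 NDRs the control levels implied by the tables moved a recomputed log2 fold change by at most 0.30.

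Close to YBP2, the values did not form a smooth gradient. Of the 6 NDRs within 5 kb of the middle of YBP2, 2 were above 0 with 4 copies and 4 with 8 and with 16. The NDR at the end of PKP2, upstream of RAD6, was at -0.35, -0.37 and -0.41 (adjusted p = 1.00 in each, to 2 decimals). The NDR beyond OLE1 was at -0.66 with 4 copies, -0.89 with 8, -0.43 with 16 and -1.39 with 256, which passed the test only with 256. From 30 to 50 kb the medians of 20 NDRs were 0.05, 0.07 and 0.07.

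Beyond 30 kb, 4 copies gave 6 higher NDRs, 8 copies 0 and 16 copies 4. At an unadjusted p under 0.05 there were 68, 63 and 148, beside 390 with 256 copies. The 6 of the 4-copy table all lay on chromosome IV within one stretch and are described below. The 4 of the 16-copy table lay on chromosomes IV, VII, VIII and X, and none of them reached the threshold with 4 or 8 copies. Their base means were 86.2 to 138 in the 16-copy table, far above the median of 19.7.

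The far-cis NDR beside YGR050C, 201 kb from the middle of YBP2, was at 0.93 ± 0.23 with 16 copies (adjusted p = 0.018), 0.63 ± 0.23 with 4 (0.61), 0.57 ± 0.34 with 8 (1.00 to 2 decimals) and 1.18 with 256. The NDR between HXT3, a glucose transporter, and SVF1 was at 0.87 ± 0.22 with 16 copies (0.024), 0.62 with 4, 0.64 with 8 and 1.28 with 256. The NDR near MYO1, for the myosin of the cytokinetic ring, was at 1.00 ± 0.25 with 16 (0.029), 0.43 with 4, 0.89 with 8 and 1.33 with 256. The NDR between YJL107C and IME2, a meiotic kinase, was at 0.88 ± 0.22 with 16 (0.022), 0.36 with 4, 0.50 with 8 and 0.97 with 256. At these 4 NDRs no difference between short arrays passed the test. In the 16-copy table log2 fold change rose with base mean. Over 5 classes of NDRs of equal size by base mean in the 4-copy table, the median ran from -0.08 in the lowest class to 0.16 in the highest. When the median of NDRs of like base mean was subtracted, none of the 4 passed (adjusted p = 0.18 to 0.38), and of the 8 higher calls those at PKP2 and DUO1/YBP2 were left.

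With 4 copies, 39 consecutive NDRs on chromosome IV were all above 0, and 6 of them were called higher (20 at an unadjusted p under 0.05). The stretch was found by a running median over 21 neighboring NDRs, which reached 0.70 there. The highest running medians in the other tables of 1 h were 0.29 with 8 copies, 0.24 with 16 and 0.46 with 256. The lowest in the 4-copy table was -0.19. NDRs with a running median of at least 0.5 times the peak ran from YDR215C to EXG2 (chrIV:893920-979266, NDR starts), 34 NDRs, all above 0. The reference annotation places a pair of Ty retrotransposons on each side of this stretch, YDRWTy2-2 and YDRCTy1-2 on the left, ending at position 884220, and YDRWTy2-3 and YDRCTy1-3 on the right, starting at 981171. The 39 NDRs are those that start between these pairs, over 97.0 kb that hold 51 annotated genes. Ty positions come from the reference strain and can differ in W303.

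**Figure D3:**
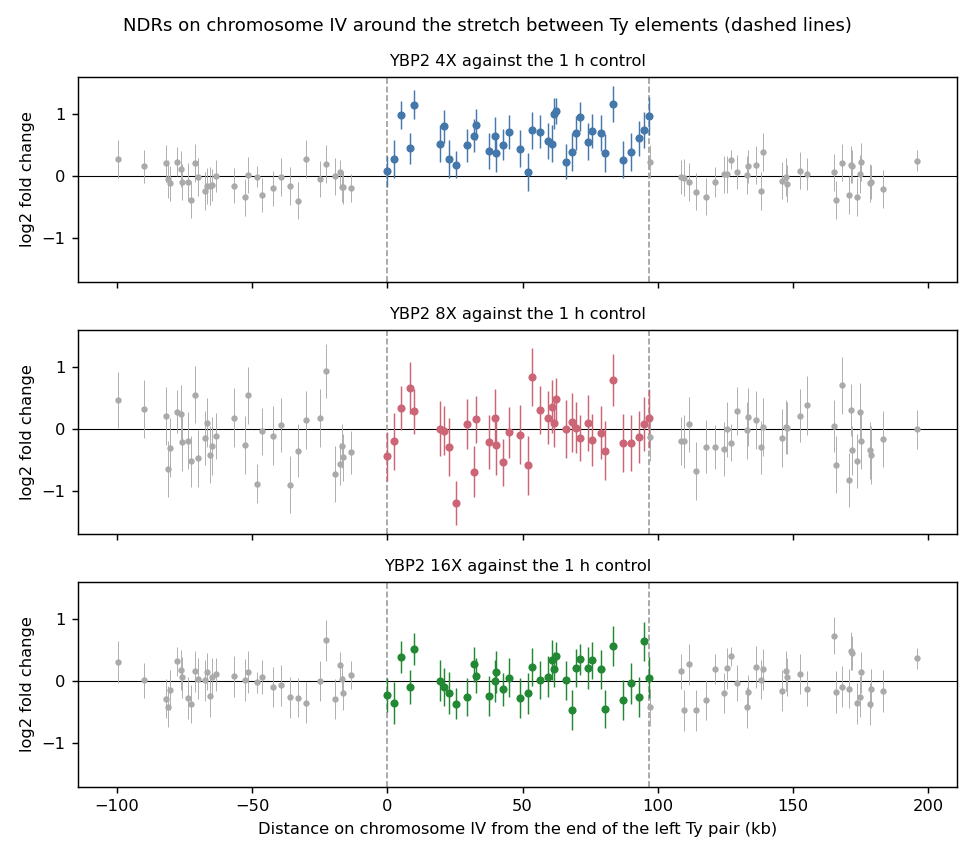
Log2 fold change (y axis, ± SE) of NDRs on chromosome IV by distance from the end of the left Ty pair (x axis, kb), for 4, 8 and 16 LacO copies. Dashed lines mark the inner edges of the Ty pairs, and colored points are the 39 NDRs between them, all above 0 with 4 copies (0.07 to 1.16) and spread around 0 with 8 and 16.

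At the left edge, the first 2 NDRs inside the stretch stood at 0.08 and 0.27 with 4 copies. Both lay within the range of the 20 NDRs to the left of the left pair (-0.39 to 0.28). The first starts 29 bp beyond that pair, and the second has a base mean of 17.4. The next, upstream of UPC2, stood at 0.99 (base mean 95.3). How sharp this edge is cannot be read from these NDRs. At the right edge the last NDR inside stood at 0.98, and 1 within the right pair, in neither group, at 0.24. The 39 NDRs had a median log2 fold change of 0.57 with 4 copies (0.07 to 1.16), -0.00 with 8 (-1.20 to 0.84) and 0.02 with 16 (-0.46 to 0.64). The 20 NDRs to the left of the left pair had a median of -0.15 with 4 copies and the 20 to the right of the right pair 0.01. Over the other 561 NDRs of chromosome IV the median was -0.01, with 266 above 0. The highest members with 4 copies included the NDRs upstream of RMD5, a subunit of a ubiquitin ligase (1.16 ± 0.29, adjusted p = 0.024), of UPC2, a regulator of sterol genes (0.99 ± 0.23, 0.018), and the NDR between AHA1 and ADR1 that reaches into YDR215C (1.15 ± 0.23, 0.0014).

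The pair of NDRs at SUP2, a tyrosine tRNA gene, and AMD2 stood at 1.05 ± 0.21 (adjusted p = 0.0010) and 1.01 ± 0.25 (0.023), and the NDR upstream of VHS1, a protein kinase gene, at 0.96 ± 0.23 (0.018). With 8 copies these 6 NDRs ranged from -0.15 to 0.79 and with 16 copies from 0.19 to 0.57. With 256 copies at 1 h they ranged from 0.04 to 1.02, and 2 were called higher, YDR215C at 1.02 (0.0058) and the SUP2/AMD2 NDR printed above at 0.74 (0.034). When the median of NDRs of like base mean was subtracted, the other SUP2/AMD2 NDR no longer passed with 4 copies (adjusted p = 0.05003). Members that did not pass included the NDRs upstream of TCP1 (0.27, adjusted p = 1.00 to 2 decimals), SIR4 (0.83, 0.19), SEC26 (0.72, 0.65) and HSP78 (0.39, 1.00 to 2 decimals). The NDR of MET32, a regulator of sulfur genes that lies in this stretch, was at 0.37.

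The median of the 39 with 4 copies corresponds to 1.484-fold over the control. It was higher among members with more reads in that table. The 15 members with a base mean of at least 50 had a median of 1.668-fold. The 6 with at least 80 had one of 1.968-fold, with log2 fold changes from 0.19 to 1.15. Across the 39, base mean and log2 fold change had a Spearman correlation of 0.503. The reason for this rise was not tested. Of the 39, 39 were higher with 4 copies than with 16 and 37 higher than with 8, with median differences of 0.59 and 0.63, although no single member's difference passed the test across all NDRs. The members hold 2 to 17 GC each, with a median of 7 beside 6 over all NDRs. As the stretch was picked for its values, these are descriptions. Its methylation and its number of DNA copies in the 4-copy strain cannot be told apart from MeDIP alone.

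**Figure D4:**
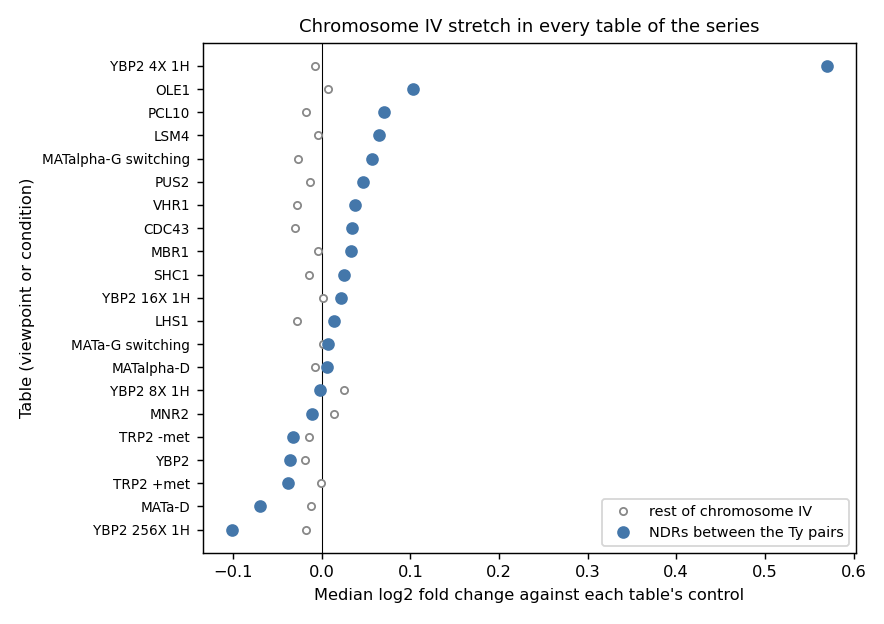
Median log2 fold change (x axis) of the NDRs between the Ty pairs (filled) and of the rest of chromosome IV (open) in each of the 21 tables of the series (y axis, named by VP or condition). The 4-copy table stands at 0.57, and the other 20 between -0.10 and 0.10.

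Across the series, the 4-copy table alone had all 39 NDRs above 0. In the other 20 tables the median of these 39 NDRs lay between -0.10 and 0.10, and 17 to 26 were above 0. In the table of 256 copies at 1 h, with the same control libraries, it was -0.10. Without the NDRs of the stretch, the 4-copy table held 0 higher NDRs beyond 30 kb in place of 6 (a count made after the values were seen).

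NDRs below the control were most numerous with 8 copies. Of these 21, 20 lay in the class of highest base mean, where the median log2 fold change with 8 copies was -0.08, beside 0.15 in the lowest class. Calls of the other short arrays lay mostly in that class too. It held 7 of 8 higher and 3 of 3 lower NDRs with 4 copies, and 7 of 8 and 6 of 6 with 16. The strongest was the NDR upstream of CMK1, for a calmodulin-dependent protein kinase, at -2.53 ± 0.40 (adjusted p = 5.1e-07), beside -0.85 with 4 copies, -0.12 with 16 and -2.03 with 256. The NDR between CWC22 and SCW4, a cell wall protein gene, was at -2.10 ± 0.40 (2.3e-04), beside -0.70, -0.57 and -1.19. That upstream of RAP1, the telomere-binding transcription factor, was at -1.90 ± 0.35 (9.7e-05), beside -0.41, -0.22 and -1.38.

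The NDR between SAP4 and SHE10 was at -1.81 ± 0.37 with 8 copies (7.7e-04), and that between RPN6, a proteasome subunit, and PMT1, a protein mannosyltransferase, at -1.78 ± 0.35 (3.7e-04). NDRs at POP3/WSC2 (-1.67), VMA10/BCD1 (-1.67) and GPD2/MAM3 (-1.54) followed. The NDR in the spacer beside the rDNA repeats (ETS2-1) was called lower with 8 copies (-1.66 ± 0.33, 3.7e-04) and with 4 (-0.82 ± 0.20, 0.023), and was at -0.53 with 16. The NDR near PAU18 was at -1.65, and the other 8-copy calls ranged from -1.31 to -1.68. In the 4-copy table the 21 NDRs ranged from -0.85 to 0.27, and in the 16-copy table from -0.98 to 0.41. With 256 copies at 1 h, against the same control, 20 of the 21 were below 0, with a median of -0.91. There 12 of the 21 were called lower, beside 3.21% of all NDRs.

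**Figure D5:**
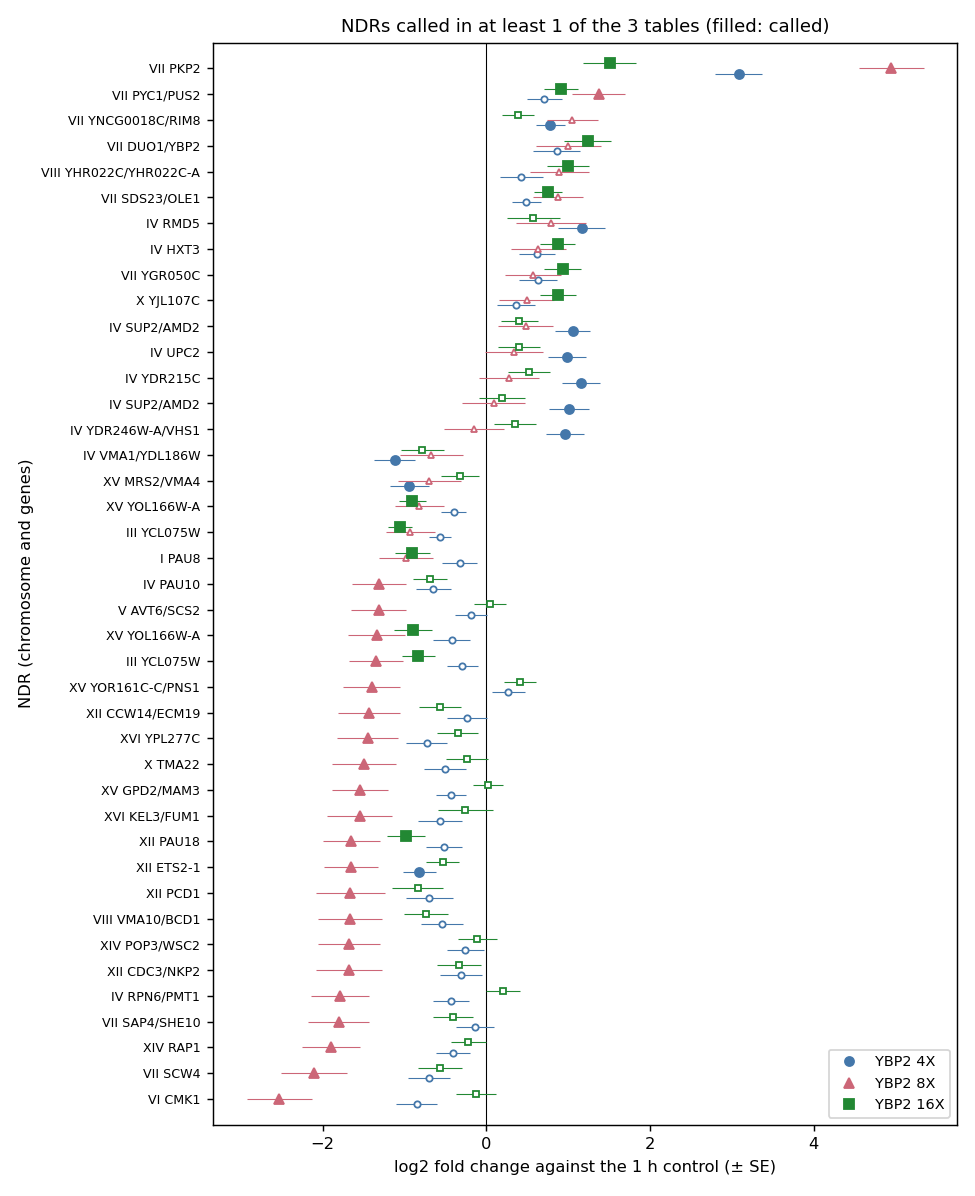
Log2 fold change (x axis, ± SE) of the 41 NDRs called in at least 1 of the 3 tables, named by chromosome and neighboring genes (y axis), with 4 copies as circles, 8 as triangles and 16 as squares. Filled symbols passed the threshold. At the foot the 8-copy values stand apart at -1.31 to -2.53, while 4 and 16 copies lie nearer 0.

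With 4 copies, the other lower NDRs were those between YDL186W and VMA1, a vacuolar proton pump subunit (-1.12 ± 0.26, adjusted p = 0.014), and between VMA4 and MRS2 (-0.94 ± 0.23, 0.025). Their values with 8 copies were -0.67 and -0.70, and with 16 copies -0.78 and -0.32.

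With 16 copies, the 6 lower NDRs all lay at chromosome ends, at most 11.7 kb from the end. The NDR at the left end of chromosome III was at -1.05 ± 0.15 (adjusted p = 8.9e-09), beside -0.56 with 4 copies, -0.93 with 8 and 0.15 with 256. It has the highest base mean of all NDRs (11678 in this table) and is the 463-base NDR with no GC. The end of chromosome XV was at -0.91 ± 0.17 (1.3e-04), beside -0.40, -0.82 and 0.06. A second NDR on each of these ends, 0.748 and 0.468 kb from the tip, was at -0.83 ± 0.20 (0.021) and -0.89 ± 0.23 (0.042), and the NDR at the end of chromosome I, near the seripauperin gene PAU8, at -0.90 ± 0.22 (0.018). The sixth, near PAU18 on chromosome XII, was at -0.98 ± 0.23 (0.013).

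These NDRs hold repeats that several chromosome ends share, so reads may not be assigned to one end with certainty. Over the 306 NDRs within 30 kb of an end, 0 (0%), 5 (1.63%) and 6 (1.961%) were called lower with 4, 8 and 16 copies, beside 0.0621%, 0.435% and 0.124% of all NDRs. At an unadjusted p under 0.05, 15, 36 and 30 were lower (4.90%, 11.8% and 9.80%, beside 1.88%, 4.25% and 2.01% of all). Their medians were -0.03, 0.02 and -0.01. Of the 13 NDRs within 1 kb of an end, 12, 13 and 12 were below 0 with 4, 8 and 16 copies, and 4 with 256. Of the 412 NDRs within 30 kb of a centromere, 0 were called higher in the 3 tables (2, 4 and 8 at an unadjusted p under 0.05) and 2 lower, both with 8 copies (0.485%, beside 0.435% of all). The 34 NDRs with no GC had medians of -0.08, -0.04 and -0.13 and a median base mean of 9.01 in the 4-copy table.

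Between the short arrays, few NDRs differed. The difference of 2 log2 fold changes was divided by the SE of a difference of independent values, with 3 pairs and p adjusted over the 4828 NDRs of each (normal test, Benjamini-Hochberg). Between 4 and 8 copies 0 NDRs were higher (0%) and 0 lower (0%), with 58 and 25 at an unadjusted p under 0.05. Between 4 and 16 copies 0 were higher (0%) and 0 lower (0%), with 11 and 7 unadjusted. Between 8 and 16 copies 1 was higher with 8 (0.0207%), the PKP2 NDR, and 5 were lower (0.104%), with 19 and 86 unadjusted. As the control is shared, its error enters both values, which makes this test wide. The spread of the statistic was 0.60, 0.56 and 0.70, and the part of any moderation in it was not tested. With a correlation of 0.5 assumed for the shared control, the counts were 11 and 3 for 4 against 8 copies, 1 and 0 for 4 against 16, and 11 and 28 for 8 against 16.

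The 5 NDRs that were lower with 8 copies than with 16 lay on chromosomes IV, VI, XIV and XV. That upstream of CMK1 differed by -2.41 (95% interval -3.32 to -1.49, adjusted p = 6.4e-04), that between RPN6 and PMT1 by -1.98 (-2.79 to -1.18, 0.0022) and that between PNS1 and YRR1 by -1.81 (-2.59 to -1.03, 0.0063). Those upstream of RAP1 and between MAM3 and GPD2, for a glycerol-3-phosphate dehydrogenase, differed by -1.68 (0.040) and -1.56 (0.042), and neither passed when the median of NDRs of like base mean was subtracted (0.16 and 0.21). At the PNS1/YRR1 NDR 4 copies (0.27) and 16 copies (0.41) stood above 0 and 8 copies at -1.40. For 4 of the 5 the value with 256 copies, -1.38 to -2.03, was also far below that with 16.

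The loci called higher with a 256-copy array at YBP2 after 2 h were seldom called with the short arrays. The 2 h table has other control libraries and called 129 NDRs higher (2.67% of NDRs), of which 116 lay beyond 30 kb. In the short-array tables these 116 had medians of 0.21, 0.19 and 0.34 with 4, 8 and 16 copies, and 97, 84 and 107 were above 0, beside 50.1%, 51.5% and 48.2% of all NDRs. By the threshold 0, 0 and 1 were higher and 0, 1 and 2 lower. Their median base mean was 66.5, 66.4 and 78.1, against about 18.2 to 19.7 over all NDRs, and in the class of highest base mean the medians of all NDRs were 0.07, -0.08 and 0.16.

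Of 15 NDRs at 10 named contacts of that table, 14 were above 0 with each short array, with medians of 0.21, 0.35 and 0.41 and of 1.05 with 256 copies at 1 h. The NDR upstream of MUP1, the methionine permease, was at 0.14 with 4 copies, 0.10 with 8, 0.40 with 16 and 1.20 with 256. That of MET13, a methylenetetrahydrofolate reductase, was at 0.57, 0.67, 0.40 and 2.41. That of DMA2, a ubiquitin ligase, was at 0.61, 1.16, 0.54 and 1.18. Among the short arrays only the YGR050C NDR with 16 copies passed the test, while 7 of the 15 passed with 256 copies at 1 h. The list was chosen with results known and is not independent evidence.

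The methionine regulon, 47 NDRs at 38 of 40 listed genes, had medians of 0.05, -0.04 and 0.06, with 0 called in either direction in the 3 tables (at an unadjusted p under 0.05, 2, 2 and 4 higher, or 4.26%, 4.26% and 8.51%, beside 1.51%, 1.41% and 3.17% of all NDRs, and 1, 5 and 1 lower, or 2.13%, 10.6% and 2.13%, beside 1.88%, 4.25% and 2.01%). With 256 copies at 1 h, 6 of them were higher (12.8%, beside 4.54%) and 3 lower (6.38%, beside 3.21%). Hexose transporter genes (16 NDRs at 13 of 19 genes) had medians of -0.00, -0.03 and 0.13, with 0 called (and 0 at an unadjusted p under 0.05). The HXT3/SVF1 NDR lies more than 1 kb from the start of HXT3 and was not counted among them. The NDRs within 5 kb of the marker and expression loci HIS3 (3), LEU2 (3) and ADH1 (4) had 0 calls in the 3 tables, and 1 of them, at ADH1 with 16 copies, had an unadjusted p under 0.05. On chromosome VII beyond 30 kb, 426 NDRs had medians of 0.01, 0.02 and -0.00, beside -0.00, 0.01 and -0.01 for the 4373 on other chromosomes.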

How the data were processed

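MeDIP libraries of YBP2 strains with 4, 8 and 16 LacO copies and of the control without LacO, all at 1 h, were compared through 3 deposited tables, and tables of 256 copies at 1 h and 2 h served for reference. The authors trimmed reads with fastp 0.23.2, aligned them to sacCer3 with BWA 0.7.17, removed duplicates with Picard, counted reads per NDR with featureCounts 2.0.3, letting a read count for each NDR it overlaps, and ran DESeq2 1.38.0. The base mean is the authors' signal value, reads per NDR over size factors averaged over a table's libraries. The deposited log2 fold change and its SE are the authors' estimates, and their p-value columns were not used.

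From the log2 fold change and SE, two-sided normal p-values were recomputed and adjusted by the Benjamini-Hochberg method over all NDRs of a table, or of a pair of tables for differences (Python 3.11.15, numpy 2.4.6, pandas 2.3.3, scipy 1.17.1). The p-values rest on the SEs of 2 libraries a group, described by the study as biological replicates. An NDR took the genes that start within 1 kb of its start, otherwise the nearest. Named were local calls, calls beyond 30 kb (the 10 largest statistics where more), the 5 largest differences per pair and direction, evenly spaced members of the stretch, and listed genes. TCP1, SIR4, SEC26, HSP78, MET32 and the RAD6 and OLE1 neighbors were picked after their values were seen. The members and lists were chosen with earlier results of these data known. The calculation was tested on simulated data, drawn as set log2 fold changes plus normal noise at the deposited SEs. Moderated values were not simulated, so that test does not cover them. No values of single libraries or input DNA were used here, and the paper's read totals entered no calculation.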

Additional observations from a re-analysis of the deposited data

Results flagged for a closer look

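Effects that differed between strains of unlike copy number were looked at again. At the PKP2 NDR, next to YBP2, the log2 fold change with 8 copies exceeded that with 16 by 3.44, the difference that passed the test across all NDRs. Over the 6 pairs of copy numbers at 1 h it also differed by -1.87 for 4 minus 8 copies, by 1.57 for 4 minus 16, by 1.94 for 8 minus 256 and by -1.50 for 16 minus 256. With one control level for all tables these became -1.69 for 4 minus 8, -0.58 for 4 minus 16, 1.11 for 8 minus 16, 0.96 for 8 minus 256 and -0.15 for 16 minus 256, so that the sign of 4 minus 16 turned.

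For 8 minus 16 copies, the difference was -2.41 at CMK1, -1.98 at RPN6/PMT1, -1.81 at PNS1, -1.68 at RAP1 and -1.56 at GPD2/MAM3. The last pair did not pass with the trend by base mean removed (adjusted p = 0.16 and 0.21). The 8-copy table had the widest SEs of the 3 short arrays and 20 of its 21 lower calls in the class of highest base mean, and the part of either in these differences was not tested.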

How the results depend on the processing

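No paired analysis was possible because the tables hold no values of single libraries, and no library could be left out for the same reason. Calls without a fold change cutoff, with a base mean of at least 10 or centered on the median kept their counts within 1.5 times in all 3 tables. At a cutoff of 1, 5 NDRs were higher and 1 lower with 4 copies, and 2 and 1 with 16. With SEs scaled by the robust spread, 17 were higher and 17 lower with 4 copies, 20 and 83 with 8, and 14 and 10 with 16. With the rise by base mean removed, 5 were lower with 4 copies, and 2 higher and 19 lower with 16. Within 10 kb of the VP position in place of 30 kb, 1 local NDR was higher with 4 copies and 1 with 8, and the local median with 4 copies was -0.12. Measured from the middle of YBP2 instead, 1, 1 and 2 NDRs within 5 kb were higher with 4, 8 and 16 copies. From 5 to 10 kb the counts were 0, 1 and 2. With 4 copies the medians of these ranges were -0.14 and 0.32. Without the chromosome IV stretch (chosen after seeing the data) 0 NDRs beyond 30 kb were higher with 4 copies.

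For differences, a correlation of 0.5 gave 11 higher and 3 lower for 4 minus 8 copies, 1 higher for 4 minus 16, and 11 and 28 for 8 minus 16. With the rise by base mean removed, 8 minus 16 gave 3 higher and 3 lower, and the differences at RAP1 (adjusted p = 0.16) and GPD2/MAM3 (0.21) no longer passed. With one control level (chosen after seeing the data) the PKP2 NDR gave -0.58 for 4 minus 16 and -0.73 for 4 minus 256, both reversed, and 1.11 for 8 minus 16, 0.96 for 8 minus 256 and -0.15 for 16 minus 256. Running medians over 11 and 41 NDRs moved the peak of the chromosome IV stretch to 0.70 and 0.56. NDRs with few reads, and any change under the SEs of about 0.29 to 0.45, are not resolved at this depth.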
